A study of Mus musculus with 10 samples.

Results

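The zinc finger genes Zfp600 to Zfp999 were followed in nuclei of adult mouse brain neurons that had lost Mphosph8 or Morc2a. The genes were those annotated as protein coding whose symbol runs from Zfp600 to Zfp999 with nothing after the number. Of 171 such genes, 150 had at least 10 read counts summed over the 10 libraries and form the group described here, out of 54532 genes counted. The name fixes the group, so its members share neither a measured response nor a single gene family. RNA was sequenced from nuclei sorted for NeuN, a nuclear antigen of most mature neurons, 1 library per labelled replicate. The study's methods call its replicates biological throughout and describe the sequenced mice as littermates, while the labels do not tie each library to an animal.

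All 10 libraries came from adult C57BL/6J mice. The 5 control libraries carried homozygous floxed alleles without Cre, of Mphosph8 in control replicates 1 to 3 (Mphosph8fl/fl Nestin-Cre-) and of Morc2a in control replicates 4 and 5 (Morc2afl/fl Nestin-Cre-). The 3 Mphosph8∆n libraries were Mphosph8fl/fl Nestin-Cre+ and the 2 Morc2a∆n libraries were Morc2afl/fl Nestin-Cre+. The Nestin promoter drives Cre in neural progenitors, so the deletion precedes the neurons that were sorted and is shared by glia of the same brain. The floxed alleles were made in different embryonic stem cells before breeding to C57BL/6J. The comparison of the floxed lines in control libraries therefore also compares whatever flanking sequence and breeding history the lines carry, which cannot be told apart here. In sorted nuclei in bulk, fewer cells of a type and less RNA per cell cannot be told apart either.

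MPP8, the product of Mphosph8, is a chromodomain protein of the HUSH complex, which binds methylated histone H3 lysine 9 and silences repeats and some genes. MORC2A is a DNA-dependent ATPase that HUSH recruits to compact chromatin. Many Zfp genes encode proteins with arrays of C2H2 zinc fingers, each finger reading a few bases of DNA, and a large family of them also carries a KRAB domain. KRAB binds the co-repressor TRIM28 (KAP1), which brings the methyltransferase SETDB1 to the bound site. KRAB zinc finger genes lie in clusters that grew by duplication, and such clusters are themselves known to carry methylated H3 lysine 9.

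A spacing of cysteines and histidines typical of the C2H2 finger was found in 145 of the 150 proteins, with a median of 11 fingers and up to 33, in Zfp619. A pattern typical of the KRAB A box was found in 98 proteins, or 65.3%. Among the 71 members in chromosome clusters 60 had it (84.5%), against 38 of the 79 outside them (48.1%). A cluster is here a run of genes of the name range in which neighbours lie within 1000000 bases, with 5 or more genes. There were 10 clusters, 1 each on chromosomes 2, 4, 6, 8 and 13, a pair on chromosome 17 and 3 on chromosome 7.

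Promoter windows are printed for the genes that the results below turn on: Zfp868, Zfp882 and Zfp961 of chromosome 8, which separated the floxed lines in every library, Zfp933 of chromosome 4, and Zfp809 of chromosome 9. Each window is RefSeq sequence of GRCm38.p6, 300 bases around an annotated start, 5′ to 3′ on the gene's strand, with each CG dinucleotide in capitals. CG is the site of DNA methylation in mammals. Zfp868 has an upstream and a downstream start, at chr8:69625499-69625798 and chr8:69625126-69625425 on the minus strand. The others are Zfp882 at chr8:71908356-71908655 (plus strand), Zfp961 at chr8:71950816-71951115 (plus), Zfp933 at chr4:147848369-147848668 (minus) and Zfp809 at chr9:22225453-22225752 (plus), the last being the first of a pair of nearly coincident windows.
Zfp868, upstream start: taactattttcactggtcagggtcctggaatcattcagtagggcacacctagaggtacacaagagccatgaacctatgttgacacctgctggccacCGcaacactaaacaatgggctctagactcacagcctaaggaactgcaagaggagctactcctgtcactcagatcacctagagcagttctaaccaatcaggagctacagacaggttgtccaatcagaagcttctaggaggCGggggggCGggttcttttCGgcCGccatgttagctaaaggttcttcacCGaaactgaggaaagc
Zfp868, downstream start: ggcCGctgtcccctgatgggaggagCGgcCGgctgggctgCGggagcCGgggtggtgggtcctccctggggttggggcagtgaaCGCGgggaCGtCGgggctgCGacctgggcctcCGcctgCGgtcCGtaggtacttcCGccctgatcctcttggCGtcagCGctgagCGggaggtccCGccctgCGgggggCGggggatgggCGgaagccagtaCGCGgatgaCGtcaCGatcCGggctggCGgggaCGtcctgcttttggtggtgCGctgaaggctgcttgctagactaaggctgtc
Zfp882: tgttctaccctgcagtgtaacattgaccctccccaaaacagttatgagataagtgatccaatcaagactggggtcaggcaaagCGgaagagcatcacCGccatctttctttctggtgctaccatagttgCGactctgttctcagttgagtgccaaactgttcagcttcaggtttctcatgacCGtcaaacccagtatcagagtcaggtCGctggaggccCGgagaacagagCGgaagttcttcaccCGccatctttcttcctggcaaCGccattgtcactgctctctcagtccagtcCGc
Zfp961: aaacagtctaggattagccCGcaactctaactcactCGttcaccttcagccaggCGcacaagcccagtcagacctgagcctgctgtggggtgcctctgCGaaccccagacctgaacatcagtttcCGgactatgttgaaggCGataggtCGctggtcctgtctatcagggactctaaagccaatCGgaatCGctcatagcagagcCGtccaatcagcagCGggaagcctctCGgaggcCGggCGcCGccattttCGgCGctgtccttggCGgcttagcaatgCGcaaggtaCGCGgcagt
Zfp933: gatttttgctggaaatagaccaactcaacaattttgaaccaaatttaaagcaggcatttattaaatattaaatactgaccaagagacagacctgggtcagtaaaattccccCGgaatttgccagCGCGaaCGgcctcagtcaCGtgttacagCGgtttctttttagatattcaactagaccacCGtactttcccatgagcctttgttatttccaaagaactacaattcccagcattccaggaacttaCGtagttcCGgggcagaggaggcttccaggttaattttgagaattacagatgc
Zfp809: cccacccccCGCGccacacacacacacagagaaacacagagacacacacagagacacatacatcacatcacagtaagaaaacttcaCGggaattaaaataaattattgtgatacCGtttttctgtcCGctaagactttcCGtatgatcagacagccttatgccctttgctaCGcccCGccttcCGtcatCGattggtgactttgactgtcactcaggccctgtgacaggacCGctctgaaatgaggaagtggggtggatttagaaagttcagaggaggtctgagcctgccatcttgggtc

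The downstream Zfp868 window held 29 CG and the upstream one 6, the Zfp961 window 21, Zfp809 11, Zfp882 10 and Zfp933 9. Of the members, 128 had windows in the table, 153 in all, with a median of 13 CG. The median over all 32851 windows of the table was 7, and 10 or more CG occurred in 43.5% of all windows and in 64.1% of the members' windows. By cluster, windows were counted over all genes of the name range, those below 10 counts included. Windows of the chromosome 4 cluster (11 genes) and the chromosome 2 cluster (9 genes) were CG-poor, with medians of 4.5 and 5. Those of the chromosome 6 cluster were CG-rich, with a median of 24. A CG count describes the window and says nothing of its methylation in these nuclei.

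Most members were expressed, over a wide range. In the control libraries 12 members had a mean level over 100 CPM (read counts scaled to the size of the library), 83 lay between 10 and 100, 36 between 1 and 10, and 19 at 1 CPM or less. Per kilobase of exonic length, the median over the members was 3.99 CPM per kb. The highest was Zfp692, a C2H2 factor without the KRAB pattern, at 81.8 ± 8.29 CPM per kb (SD, n = 5). Next came Zfp771 at 50.4 ± 9.85 and Zfp950, a KRAB member, at 40.4 ± 5.77 CPM per kb. Zfp639 (28.7 ± 4.88), Zfp706 (26.3 ± 2.72) and Zfp948 (26.3 ± 6.395 CPM per kb) followed, and these 3 neighbours lay within each other's spread.

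**Figure D1:**
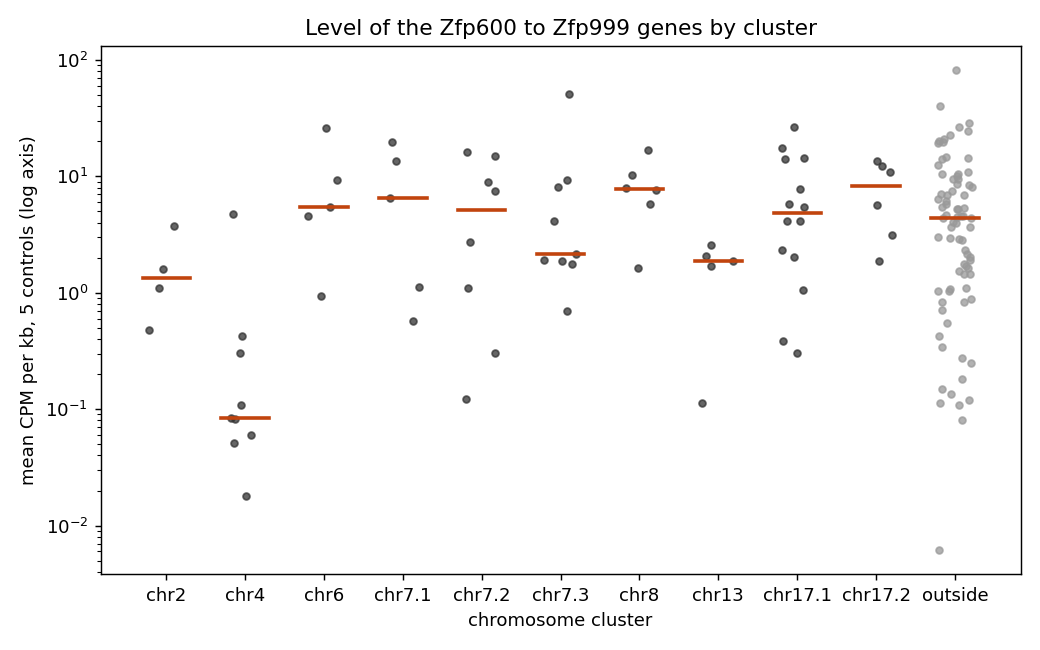
Mean level in the 5 control libraries of the 150 zinc finger genes, in CPM per kb of exonic length on a log axis, by chromosome cluster, with 79 genes outside clusters at the right. Each point is a gene and each red line the median of its cluster; the median of the chromosome 4 cluster was 0.0841 CPM per kb and that of the second chromosome 17 cluster 8.23.

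The clusters differed in level. The chromosome 4 cluster (chr4:145510759-147848366) held 17 genes of the name range, of which 9 reached 10 counts, with a median of 0.0841 CPM per kb. The median was 1.34 CPM per kb in the chromosome 2 cluster (4 of 11 genes with 10 counts), 1.87 in the chromosome 13 cluster and 2.17 in the third cluster of chromosome 7. The other clusters had medians from 4.79 to 8.23 CPM per kb, against 4.35 for members outside clusters. Zfp933 accounted for most of the chromosome 4 counts, with 4.73 ± 2.85 CPM per kb in controls.

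Of the 21 genes below the minimum, 14 had no count in any library, and 15 lay in the chromosome 4 and chromosome 2 clusters. These are also the genes whose transcripts resemble each other most. A median of 84.7% of the 50-base windows of their transcripts occurred in a transcript of another gene, against 1.76% for the 150 members. More than 50% of windows were shared in 16 of the 21 and in 7 of the 150. Reads from such windows cannot be assigned to 1 gene, so a silent gene and an uncounted one cannot be told apart, although Zfp683, Zfp616 and Zfp735 had no count with at most 0.589% of windows shared. Just inside the minimum were Zfp988 with 10 counts, Zfp648 with 11 and Zfp981 with 16, and just outside were Zfp982 with 8, Zfp993 with 6 and Zfp708 with 4.

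**Figure D2:**
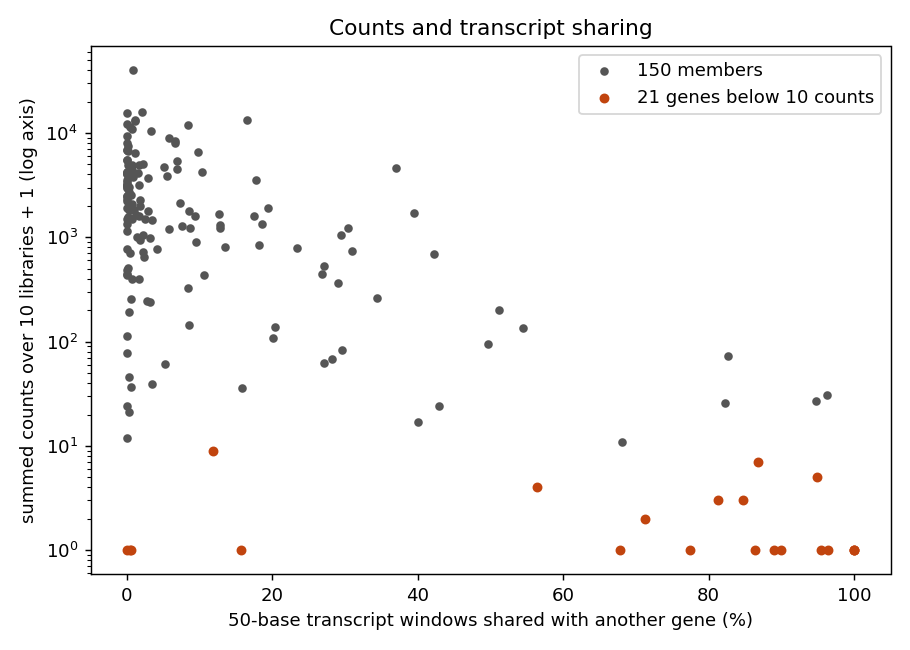
Summed counts over the 10 libraries plus 1, on a log axis, against the percentage of a gene's 50-base transcript windows that occur in a transcript of another gene. Grey points are the 150 genes with at least 10 counts and red points the 21 genes below it, 16 of which share more than 50% of their windows.

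Library depth ranged from 6686038 to 10764555 counts, and 3 counts corresponded to 0.280 to 0.445 CPM, counting error only. Whole-gene counts did not check the deletions, since Mphosph8 was at 18.8 to 37.1 CPM in Mphosph8∆n against 32.2 to 48.9 in controls, and Morc2a was at 215 to 223 CPM in Morc2a∆n against 122 to 163. Markers of other cells and regions varied between libraries. The summed level of 6 cerebellar granule markers was 462 CPM in control replicate 4 and 51.9 to 81.2 in the other controls. It was 103 to 376 CPM in Mphosph8∆n and 47.0 to 56.8 in Morc2a∆n. The summed level of 5 pituitary markers was 300.2 CPM in Mphosph8∆n replicate 2 and at most 26.1 in the other libraries. Both Morc2a∆n libraries lay below every control in the sums of 4 marker lists. The 6 general neuron markers summed to 3187 to 3817 CPM in Morc2a∆n against 3922 to 4637 in controls, and the 6 oligodendrocyte markers to 513 to 635 against 686 to 870. The 3 inhibitory markers summed to 834 to 923 CPM against 935 to 1348, and the 5 midbrain and hindbrain markers to 112 to 125 against 154 to 167. The last list was at 182 to 189 CPM in Mphosph8∆n, above every control. No marker list had a gene at 0 in all libraries.

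Against all 5 controls, loss of Mphosph8 moved no member past the threshold. Of 18573 genes tested, 139 were members, and 11 members were too low to test. With edgeR's quasi-likelihood test, Benjamini-Hochberg adjustment over all genes tested, and a fold change above 2, 0 members were called in Mphosph8∆n against the 5 controls, where 0.0969% of all genes were. DESeq2 and limma-voom called 0 members as well. At an unadjusted p below 0.05, 4 members were higher (background 2.58%) and 7 lower (background 3.09%). The 3 libraries lay above every control for 5 members (background 2.3%) and below for 4 (background 2.26%). The median log2 fold change of the 139 members was 0.04, with 56.1% above 0, against -0.01 and 48.7% over all genes.

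**Figure D3:**
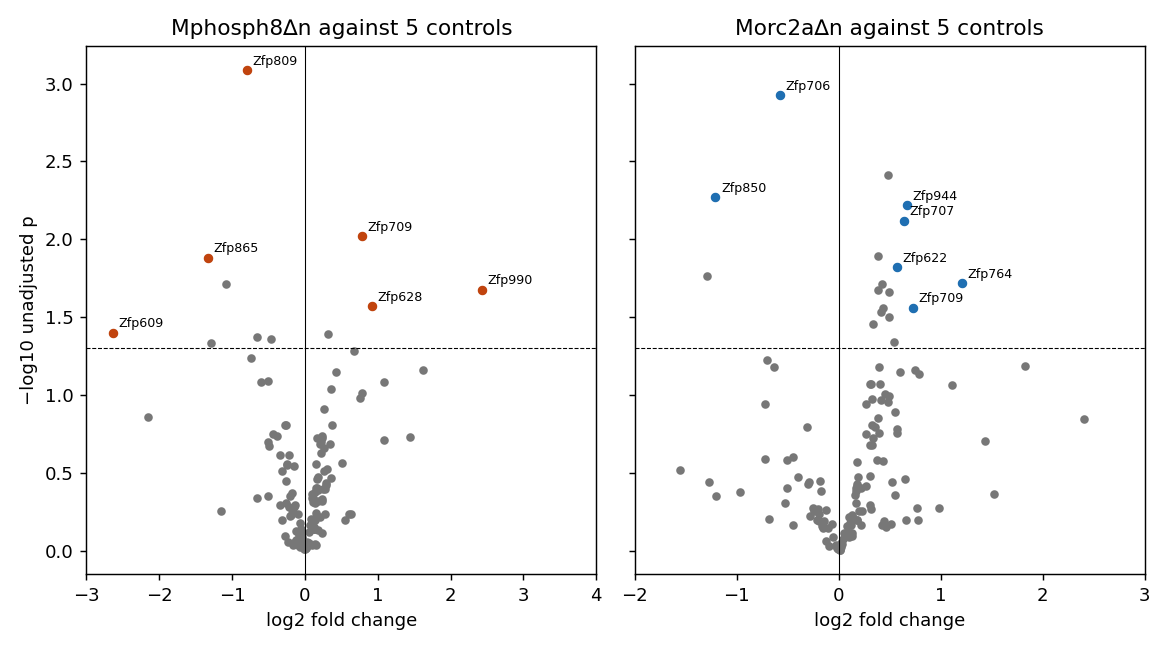
Log2 fold change of the 139 tested members against the −log10 of the unadjusted p in Mphosph8∆n (left) and Morc2a∆n (right), each against all 5 controls. Each point is a gene, the dashed line marks the unadjusted threshold, and the coloured genes are those named because their knockout libraries lay beyond every control; 0 members passed after adjustment in either panel.

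Zfp809, a KRAB zinc finger protein known to silence retroviral DNA through its primer binding site, had the smallest p. Its level was 40.7, 33.4, 36.8, 42.4 and 54.4 CPM in the controls in replicate order, and 23.5, 22.4 and 25.7 CPM in Mphosph8∆n. All 3 knockout libraries lay below every control and varied little among themselves, whereas both Morc2a∆n libraries (46.4 and 39.1 CPM) were within the control range. The log2 fold change was -0.80 ± 0.20 (SE), with an adjusted p of 0.321 in edgeR's quasi-likelihood test, so it did not pass. DESeq2 gave an adjusted p of 0.0376, with a fold change under 2. Against controls of the same line only, the log2 fold change was -0.63 (adjusted p = 0.71, edgeR).

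Zfp865 and Zfp609 also lay below every control. Zfp865 was at 4.00 to 7.48 CPM in controls and 1.06 to 3.2 in Mphosph8∆n (log2 fold change -1.32 ± 0.48). Its exons share 28.4% of their bases with other genes, Zfp784 among them. Zfp609, a large protein with 1 finger match, was at 0.395 to 1.59 CPM in controls and 0.0965 to 0.310 in Mphosph8∆n, where 3 counts are worth about as much. The adjusted p was 0.800 for Zfp865 and 0.872 for Zfp609 with edgeR.

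In the other direction, Zfp709 and Zfp628 were above every control. Zfp709, a KRAB member of chromosome 8, was at 10.3, 8.09, 13.7, 12.5 and 13.1 CPM in controls and at 25.7, 14.6 and 19.1 in Mphosph8∆n. It was also at 22.1 and 16.1 CPM in Morc2a∆n, so that both knockouts lay above all controls. The log2 fold changes were 0.78 ± 0.27 and 0.73 ± 0.30, with adjusted p of 0.772 and 0.391 (edgeR), and since the comparisons share their controls they are not independent. Zfp628 was at 5.13 to 7.48 CPM in controls and 10.0 to 15.3 in Mphosph8∆n, and at 10.8 and 2.89 CPM in the Morc2a∆n libraries.

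Zfp990, a KRAB member of the chromosome 4 cluster (chr4:145510759-145539188), depended on which controls were used. Control replicates 1 to 3, of the Mphosph8 line, had 0.250, 0 and 0 CPM, while control replicates 4 and 5, of the Morc2a line, had 2.57 and 4.597 CPM. The 3 Mphosph8∆n libraries had 6.72, 6.37 and 10.4 CPM and the 2 Morc2a∆n libraries 3.62 and 4.23. The Mphosph8-line controls were thus the only 3 libraries near 0.

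Zfp990 had 232 counts in the 3 Mphosph8∆n libraries and 2 in the 3 controls of the same line, a ratio per total counts of 115 (95% exact interval 31.5 to 956, counting error only). In the comparison with same-line controls Zfp990 was the 1 member called (adjusted p = 0.00649 with edgeR), where 0.0538% of all genes were called higher. Against all 5 controls its adjusted p was 0.810 (edgeR), and 29.1% of its transcript windows are shared with other genes. In Morc2a∆n against the controls of that line, the log2 fold change of Zfp990 was 0.14 ± 0.78. The difference between the 2 knockout effects on Zfp990 had an unadjusted p of 7.2e-05 and an adjusted p of 0.133 with edgeR, so it did not pass.

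**Figure D4:**
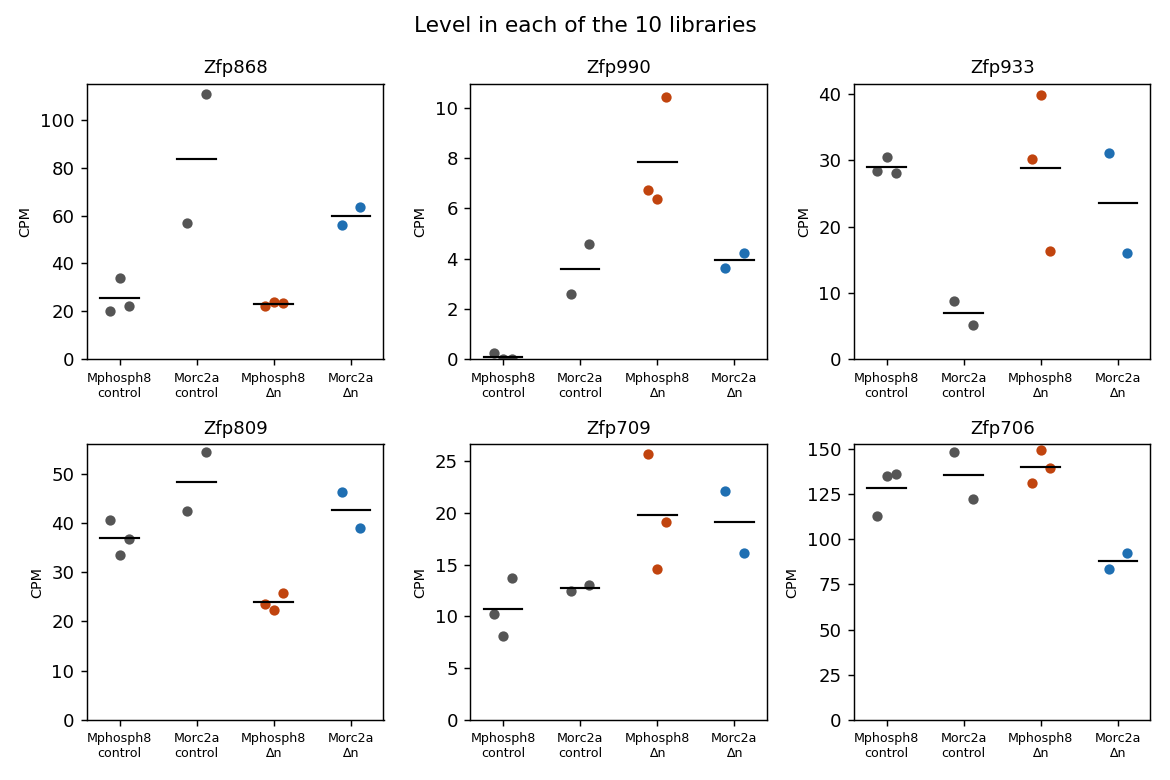
Level in CPM of 6 members in each of the 10 libraries, grouped as controls of the Mphosph8 line (n = 3), controls of the Morc2a line (n = 2), Mphosph8∆n (n = 3) and Morc2a∆n (n = 2). Points are libraries and bars group means; Zfp990 was at most 0.250 CPM in the Mphosph8-line controls and at least 2.57 in the other 7 libraries.

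Loss of Morc2a left the members with more genes above the controls than below, without a call. In Morc2a∆n 0 members were called by edgeR, where 0.0592% of all genes were, and 0 by DESeq2 and limma-voom. At an unadjusted p below 0.05, 15 members were higher (10.8%, background 4.32%) and 3 lower (2.16%, background 6.4%). The median log2 fold change over the members was 0.18, with 68.3% above 0, against -0.01 and 48.7% over all genes. The 182 tested genes Zfp1 to Zfp599 had a median of 0.07, with 60.4% above 0. Of these, 11 were higher (6.04%) and 3 lower (1.65%) at an unadjusted p below 0.05. Against controls of the same line, the median was 0.18 for the members and 0.11 for Zfp1 to Zfp599, with 63.3% and 62.1% above 0. In that comparison 11 members were higher (7.91%, background 4.28%) and 3 lower (2.16%, background 4.81%) at the same threshold. Both Morc2a∆n libraries lay above every control for 23 members (background 7.6%) and below for 3 (background 7.79%). In the same libraries the neuron, oligodendrocyte, inhibitory and midbrain and hindbrain marker sums were below every control, and their part in the members' levels was not tested. With 1 Morc2a∆n library left in the fit, the median was 0.20 without replicate 1 and 0.09 without replicate 2.

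Summed over the 150 members, the level was 4495 to 5247 CPM in controls, 4898 to 4980 in Mphosph8∆n and 5365 to 5599 in Morc2a∆n, with both Morc2a∆n libraries above the controls and the Mphosph8∆n libraries inside their range. The genes Zfp1 to Zfp599 likewise summed to 6975 to 7562 CPM in Morc2a∆n, above the 6422 to 6964 of the controls. The median log2 fold change was 0.18 for the 90 tested members with the KRAB pattern and 0.18 for the 49 without it.

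By cluster, members of the first chromosome 17 cluster centred on a log2 fold change of 0.42 in Morc2a∆n (median), with 11 of 14 members above 0 and 4 at an unadjusted p below 0.05, all higher (background 4.32%). Its summed level was 381 to 499 CPM in controls and 468 and 627 CPM in Morc2a∆n, so 1 of the 2 libraries lay within the control range. In the chromosome 4 cluster the median was 0.95 over the 4 of 9 members that were tested, all above 0 and 0 at an unadjusted p below 0.05. Neither cluster was high in Morc2a∆n alone, and the 2 knockouts share their controls. In Mphosph8∆n the first chromosome 17 cluster had a median of 0.20, also with 11 of 14 members above 0. The chromosome 4 median was 0.97 there, with 3 of 4 above 0 and 1 higher at an unadjusted p below 0.05 (background 2.58%). In Morc2a∆n the chromosome 13 cluster had the lowest median of any cluster, at -0.51, with 1 of 5 members above 0. Its summed level also differed by floxed line, at 58.9 and 38.1 CPM in Morc2a-line controls and 71.2 to 77.0 in Mphosph8-line controls. It was 23.8 and 48.9 CPM in Morc2a∆n and 68.6 to 78.5 in Mphosph8∆n. Every library of the Morc2a line, with or without Cre, thus lay below every library of the Mphosph8 line. Zfp738, the most counted member of that cluster, was at 9.05 CPM in control replicate 5, 40.1 to 52.4 in the other controls, and 8.08 and 23.8 CPM in Morc2a∆n.

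Zfp706 was the member with the smallest p. It encodes a short protein of 76 residues with 1 finger match and was at 113, 135, 136, 148 and 122 CPM in controls and 83.8 and 92.3 CPM in Morc2a∆n. Both knockout libraries lay below every control, while Mphosph8∆n (131 to 149 CPM) overlapped them. The log2 fold change was -0.57 ± 0.15 with an adjusted p of 0.160 (edgeR), and DESeq2 gave an adjusted p of 0.00777 with a fold change under 2. Zfp850, a KRAB member of chromosome 7, was at 9.45 to 16.6 CPM in controls and 6.06 and 5.36 CPM in Morc2a∆n (log2 fold change -1.21 ± 0.38, adjusted p = 0.248, edgeR).

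The largest log2 fold changes among members whose Morc2a∆n libraries lay above every control were in Zfp764, Zfp709, Zfp944, Zfp707 and Zfp622. Zfp764, of the third chromosome 7 cluster, was at 2.08 to 6.03 CPM in controls and 11.1 and 9.28 in Morc2a∆n (log2 fold change 1.21 ± 0.47). It shares 27.1% of its transcript windows with other genes. Zfp944, of the first chromosome 17 cluster, was at 28.3 to 48.5 CPM in controls and 52.9 and 72.1 in Morc2a∆n (0.67 ± 0.21 on the log2 scale). Zfp707 was at 29.4 to 52.1 CPM in controls and 67.5 and 66.7 in Morc2a∆n. It also separated the floxed lines in every library, and its log2 fold change of 0.63 was 0.41 against controls of the same line (adjusted p = 0.643, edgeR). Zfp622 was at 27.9 to 38.6 CPM in controls and 55.4 and 41.1 in Morc2a∆n. Against all controls the adjusted p of these 5 lay between 0.257 and 0.391 with edgeR.

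The co-repressor genes through which KRAB proteins act did not pass either. They were listed together with Morc2a and the HUSH genes Mphosph8, Fam208a and Pphln1. Of the 17 listed genes 0 were called in either knockout. At an unadjusted p below 0.05, 1 was higher in Mphosph8∆n (Morc2a itself, background 2.58%) and 0 lower (background 3.09%). In Morc2a∆n 3 were higher (Trim28, Fam208a and the targeted gene Morc2a, background 4.32%) and 1 lower (Cbx5, background 6.4%). Trim28, which encodes KAP1, was at 290 to 341 CPM in controls, 231 to 328 in Mphosph8∆n and 380 and 427 in Morc2a∆n, with an adjusted p of 0.385 (edgeR) in the last. Setdb1, the methyltransferase, was at 131 to 164 CPM in controls and 140 and 194 CPM in Morc2a∆n.

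The controls were then compared by floxed line. Between Morc2a-line and Mphosph8-line controls, edgeR called 2 of 139 members, Zfp868 and Zfp990, both higher in the Morc2a line. Over all genes 0.129% were called and 0.0538% called higher. Zfp990 did not pass with limma-voom (adjusted p = 0.283), nor with edgeR without control replicate 2 (adjusted p = 0.12) or 3 (0.15). At an unadjusted p below 0.05, 14 members were higher (background 4.26%) and 4 lower (background 4.95%). The 5 controls hold both lines, so a line difference enters each comparison with all of them.

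Zfp868, a KRAB member of the chromosome 8 cluster (chr8:69610857-69625548), was at 20.2, 33.7 and 22.3 CPM in the Mphosph8-line controls and 57.0 and 110.6 CPM in the Morc2a-line controls. Mphosph8∆n libraries had 22.1, 23.6 and 23.3 CPM and Morc2a∆n libraries 56.1 and 63.8. All 4 libraries of the Morc2a line thus lay above all 6 of the Mphosph8 line, with or without Cre. The log2 fold change between control lines was 1.72 ± 0.27 (adjusted p = 0.0125, edgeR), and 1.38 ± 0.27 between the knockouts (adjusted p = 0.0341, edgeR), where 0.258% of all genes were called and which share no library with it. Without control replicate 5, the highest library, the former was 1.17 with an adjusted p of 0.26 by edgeR.

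Further members that separated the lines in every library were Zfp882, Zfp961, Zfp810 and Zfp707 (higher in the Morc2a line) and Zfp791 (lower). With Zfp868 these were 5 higher (background 2.05%) and 1 lower (background 1.93%) of 139 tested. Zfp868, Zfp882, Zfp961 and Zfp791 lie on chromosome 8, which holds 16 members. The share of all chromosome 8 genes that separate the lines was not computed, so this cannot be called particular to the members. Zfp882 and Zfp961 are neighbours there, at chr8:71908608-71916354 and chr8:71951038-71993792. Zfp882 was at 2.80 to 5.13 CPM in Mphosph8-line controls, 7.11 and 22.8 in Morc2a-line controls, 1.65 to 5.21 in Mphosph8∆n and 14.9 and 20.5 in Morc2a∆n. Zfp961 was at 9.01 to 15.9, 26.6 and 30.1, 7.34 to 18.1, and 28.4 and 29.2 CPM in the same order. These genes were singled out after their values had been seen.

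Some line differences were smaller between the knockouts. Zfp933, also of the chromosome 4 cluster, was at 28.4, 30.5 and 28.1 CPM in the Mphosph8-line controls and 8.69 and 5.19 CPM in the Morc2a-line controls. In the knockouts it was at 30.3, 39.9 and 16.3 CPM (Mphosph8∆n) and 31.1 and 16.0 CPM (Morc2a∆n), so the lines overlapped there. The log2 fold change between control lines was -2.04 ± 0.40, with an adjusted p of 0.0502 (edgeR), just outside the threshold. Zfp933 was called with DESeq2 (adjusted p = 0.00025), without the filter on low counts (4.3e-06), with at least 10 counts in every library (0.0202) and in a fit of the control libraries alone that was chosen after seeing the data (0.0147), but not with limma-voom (0.188). Zfp691 had 97 counts in the 2 Morc2a-line controls and 3 in the 3 Mphosph8-line controls. The ratio per total counts was 56.6 (95% exact interval 18.8 to 279, counting error only). Zfp691 was at 0.319 CPM in Morc2a∆n replicate 1 and 7.43 CPM in replicate 2. Its log2 fold change was 5.72 between control lines (adjusted p = 0.0846, edgeR) and 2.81, in the same direction, between the knockouts (adjusted p = 0.249, edgeR).

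Of the 18 members with an unadjusted p below 0.05 between control lines, 12 had the same sign between the knockouts, which share no libraries with them, and 8 of the 12 had an unadjusted p below 0.05 there. The background of that threshold between the knockouts was 6.56% higher and 7.24% lower over all genes tested. The shares among all genes that differed between control lines were not computed, so neither the 12 nor the 8 can be called particular to the members. Of all 139 tested members 81 had the same sign, and that share over all genes tested was not computed either. Zfp990 was among those that changed sign, at 5.395 between the control lines and -0.997 between the knockouts on the log2 scale. The former depends on the prior count, since the Mphosph8-line controls held 2 counts. The latter does not use those controls, and its adjusted p was 0.583 (edgeR). Of the Morc2a-line controls, replicate 4 had a cerebellar granule marker sum of 462 CPM and replicate 5 one of 69.1, within the 51.9 to 81.2 of the Mphosph8-line controls. The part of that library's markers in the line differences was not tested.

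**Figure D5:**
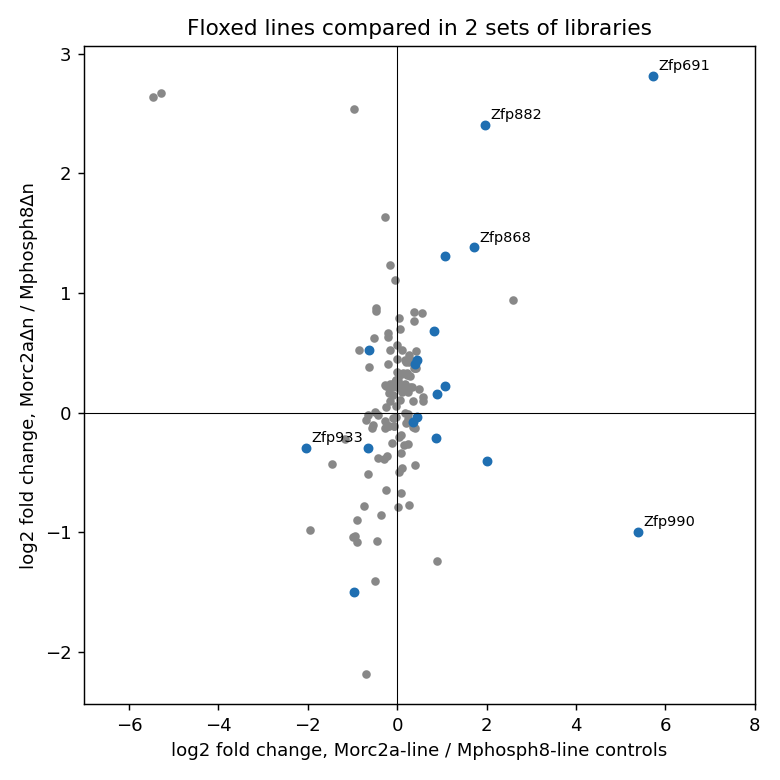
Log2 fold change of the Morc2a line against the Mphosph8 line for the 139 tested members, in control libraries (horizontal, 2 against 3) and in knockout libraries (vertical, 2 against 3). Blue points are the 18 members with an unadjusted p below 0.05 in the control libraries, and named points the 5 with the smallest; Zfp868, Zfp691 and Zfp882 lie in the upper right and Zfp990 in the lower right.

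A test of whether the effects of the 2 knockouts differed, each against the controls of its own line, called 0 of the 139 members with edgeR, where 0.0% of all genes were called. At an unadjusted p below 0.05, 6 were higher in Morc2a∆n relative to Mphosph8∆n (background 4.03%) and 3 lower (background 3.91%). The smallest adjusted p over the members was that of Zfp990 (0.133, edgeR).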

How the data were processed

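Poly(A) RNA of sorted nuclei was sequenced. Per the submitters' notes and the study's methods, the authors trimmed reads (Trim Galore 0.5.0), removed abundant sequences (Bowtie2 2.3.4.1), aligned to GRCm38 with STAR and counted with featureCounts (Subread 1.6.2). The deposited values are raw read counts per gene. The strand setting and the treatment of multi-mapping reads are not given in the sources used here. Symbols and coordinates came from GENCODE M21 (54495 of 54532 identifiers matched), a later release than the authors' annotation.

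The fits used edgeR 4.0.16 in R 4.3.3, with DESeq2 1.42.0 and limma 3.58.1 as alternatives, and tables were made with pandas 2.3.3. Low genes were filtered by edgeR's filterByExpr, leaving 18573, and libraries scaled by TMM. A 3-group fit (common dispersion 0.141) compared each knockout with all controls, and a 4-group fit compared floxed lines and knockout effects. A gene was called when its adjusted p was under 0.05 and its fold change over 2. Alternatives were other scaling, filters, tools, controls and libraries. The fits were tested on simulated data. The gene group, lists and tests were chosen with earlier results of these data known. Named genes were called members, the 5 largest rises and falls per knockout among members with non-overlapping libraries and unadjusted p below 0.05, the 6 highest per kb, the most counted of each cluster, the 5 smallest p between lines, 3 on each side of the minimum, and both targeted genes.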

Additional observations from a re-analysis of the deposited data

Results flagged for a closer look

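Among 5 control libraries, 1 stood apart from the others in Dixon's test for 8 of the 43 named genes and clusters examined. Chance flags about 1 in 20 where items are independent and chosen without regard to their values. Zfp882 was named for its difference between control lines, and the clusters hold named genes, so the 8 cannot be set against that rate. Zfp738 was at 9.05 CPM in control replicate 5 against 40.1 to 52.4 in the others. The same library was the highest for Zfp942 (123 against 77.6 to 88.7 CPM), Zfp715 (95.6 against 68.8 to 75.2 CPM) and Zfp882 (22.8 against 2.80 to 7.11 CPM). Control replicate 4 was the highest for Zfp866 (55.0 against 37.5 to 40.8 CPM). The remaining 3 were members near the count minimum, and for Zfp988 and Zfp648 the flag follows from counts in 1 control library and 0 in the other controls: Zfp988 at 0.250 CPM in control replicate 1, Zfp648 at 1.03 CPM in control replicate 3 and Zfp981 at 0.593 CPM in control replicate 4.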

How the results depend on the processing

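Replicate numbers did not pair the libraries, since residuals of libraries with the same number correlated at -0.03 to 0.04 (7 pairs). With the replicate block, 1 member was called in Mphosph8∆n (Zfp990) and 2 in Morc2a∆n (Zfp868 and Zfp990), and the Morc2a∆n median was 0.23. Control replicates 4 and 5 share their number with no knockout library, so that fit compared both knockouts with control replicates 1 to 3. These are all of the Mphosph8 line, so the loss of Morc2a and the floxed line cannot be told apart in the Morc2a∆n calls. No paired analysis was possible for the floxed lines and the difference between knockouts because the Morc2a-line controls alone carry numbers 4 and 5. With controls of the same floxed line, 1 member was called in Mphosph8∆n. With no filter on low counts, 2 members were called in Mphosph8∆n, 1 in Morc2a∆n (Zfp738, lower), 5 between the lines and 2 for the difference. DESeq2 called 4 between the lines and 1 for the difference, and limma-voom 1 between the lines. In fits chosen after seeing the data, 1 member was called between the lines in the knockout libraries (Zfp990 reversed there, to -0.997 on the log2 scale) and 5 with the line averaged over all libraries. Leaving out 1 library gave 0 calls in each knockout and for the difference, 0 to 4 between the lines, and a Morc2a∆n median of 0.0913 to 0.216; without control replicate 3 or 5 there were 0 calls between the lines, without replicate 1 or 2 there was 1, and without Morc2a∆n replicate 1 there were 4. Under the other alternatives run, each count of calls stayed within 1.5 times the main one. The members called between the lines could change, however. With at least 10 counts in every library they were Zfp868 and Zfp933, and in the fit of the control libraries alone Zfp868, Zfp933 and Zfp691, without Zfp990. Each median moved by less than the spread between libraries. Dispersion between libraries (biological coefficient of variation 0.375) and 2 libraries in each Morc2a-line group limit what fold change can pass.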
